A study of Mus musculus with 17 samples.

Results

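The genes described here were 34 genes of the T cell receptor complex and the T cell lineage, a list of names that includes the CD3 chains, the co-receptors, costimulatory receptors, proximal signaling proteins, lineage transcription factors and cytokine and chemokine receptors. All 34 were found by name among the 21931 genes of the table, and 32 of them passed the filter on low counts. Bulk RNA sequencing had been performed on distant, non-ablated MC38 tumors, with 9 controls and 8 from mice whose other tumor had been ablated. MC38 is a mouse colon cancer line. Wild-type C57BL/6J mice, 6 to 8 weeks old, had received MC38 cells under the skin on both sides, and in the cryoablation group 1 tumor was frozen with a cryoprobe on day 7, at a diameter of 5 to 6 mm. The opposite tumor was collected 5 days later. Control tumors are labelled only as control, with the same day. The group sizes are those of the labels, and the study's text gives them the other way round. The tumors were sequenced whole, as a mixture of cancer, stromal and immune cells, so that fewer T cells and less RNA per T cell cannot be told apart. The labels do not say that each tumor came from a separate mouse, and p values therefore measure the spread between these tumors.

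The T cell receptor recognizes peptides on MHC molecules, but its own chains carry no signaling domain. Signals pass through the CD3 chains, whose phosphorylated tyrosine motifs recruit the kinase Zap70 after the co-receptor CD4 or CD8 has brought in the kinase Lck, and Zap70 then phosphorylates the adaptors Lat and Lcp2 (SLP-76). In tumors, these genes are widely used as a readout of T cell infiltration, because most of them are transcribed in few other cells.

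The genes Cd3g, Cd3d and Cd3e lie side by side on chromosome 9, over 40056 bases as listed in the table. Cd3g and Cd3d are read away from each other, from start sites 1355 bases apart. Their upstream regions are shown because the neighbours had log2 fold changes of differing sign in these tumors. Each of these was smaller than its standard error, and all were below 0 without cryoablation replicates 2, 4 and 5. A link between sequence and fold change was not tested. The 250 bases before each start, from RefSeq on GRCm38.p6 and written 5′ to 3′ along the gene's strand, are chr9:44980432-44980681 (minus strand) for Cd3g, chr9:44981536-44981785 (plus strand) for Cd3d and chr9:45009612-45009861 (minus strand) for Cd3e. Capitals mark the cores of binding motifs on either strand.
Cd3g: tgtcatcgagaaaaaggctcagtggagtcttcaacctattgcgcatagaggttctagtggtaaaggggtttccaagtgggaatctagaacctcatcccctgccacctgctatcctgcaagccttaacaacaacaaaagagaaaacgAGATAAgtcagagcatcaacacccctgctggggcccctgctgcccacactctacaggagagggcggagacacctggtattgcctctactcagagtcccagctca
Cd3d: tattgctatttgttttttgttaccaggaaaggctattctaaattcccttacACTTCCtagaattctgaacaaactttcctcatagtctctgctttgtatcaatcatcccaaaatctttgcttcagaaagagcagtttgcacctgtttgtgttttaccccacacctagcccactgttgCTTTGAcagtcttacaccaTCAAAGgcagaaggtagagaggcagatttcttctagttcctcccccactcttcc
Cd3e: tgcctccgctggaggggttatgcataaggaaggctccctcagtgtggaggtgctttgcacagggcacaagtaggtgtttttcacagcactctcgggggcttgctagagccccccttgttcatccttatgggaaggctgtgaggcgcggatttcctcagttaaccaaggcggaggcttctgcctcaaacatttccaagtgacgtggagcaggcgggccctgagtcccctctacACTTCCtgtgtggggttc

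The motifs searched were GGAAGT for the ETS family, TGTGGT for the RUNX family, CTTTGA for TCF and LEF factors and AGATAA for the GATA family, each with its reverse complement. No 2 sites overlapped in the regions shown. RefSeq promoters were matched for 27 of the 34 genes, with 35 start sites. The ETS core was present in 12 of these 35 regions (34.3%), against 19.7% of all 32851 mouse promoters. The RUNX core was present in 9 (25.7%, against 14.05%), the TCF and LEF core in 9 (25.7%, against 13.8%) and the GATA core in 4 (11.4%, against 9.99%). Cd3d held 1 ETS and 2 TCF and LEF cores, Cd3e held 1 ETS core, and Cd3g held 1 GATA core. A match describes letters only and is not a binding site.

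The total count per tumor was 14154687 to 17898672 in control tumors and 13524899 to 16847050 in cryoablation tumors. An absence of reads left room for up to 3 counts, with counting error alone considered. By total count, before TMM scaling, this was 0.168 to 0.222 CPM (counts scaled to a common library size). After TMM scaling, 3 counts were 0.258 CPM in cryoablation replicate 2. Values below are TMM-normalized CPM, and fold changes are given on the log2 scale as cryoablation over control. Cryoablation replicates 2, 4 and 5 stood apart from the other tumors on the first principal component (64.0% of the variance), at -25.5, -31.5 and -31.3, against -9.52 to 16.7 elsewhere. Markers of the carcinoma line were uneven: Krt8 ranged from 0 to 19.9 CPM in control tumors and from 0 to 58.8 CPM in cryoablation tumors, and Krt18 reached 0 in the cryoablation group. The 6 measured genes of a list of 8 T cell markers were above 0 in every tumor. The constant genes of the T cell receptor chains were not analysed here.

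No T cell gene passed the correction for multiple tests. By edgeR's quasi-likelihood test, 0 of the 32 genes tested had a Benjamini-Hochberg adjusted p under 0.05, as had 0 of all 13005 genes (0%), and the smallest adjusted p in the table was 0.728. At an unadjusted p under 0.05, 3 of 32 were lower in the cryoablation group (Ubash3a, Ccr9 and Tcf7), against 1.17% of all genes. At the same p, 0 of 32 were higher, against 3.74% of all genes. DESeq2 also found 3 lower at an unadjusted p under 0.05, against 1.61% of all genes, and limma voom found 5, against 5.36%. Ubash3a and Ccr9 (2 of 32) also had an absolute log2 fold change over 1, against 0.138% of all genes in the lower direction, and 0 of 32 passed this threshold in the higher direction, against 0.354%. In exact permutation tests over the 24310 assignments of the tumors to the groups, the same 3 genes had an unadjusted p under 0.05 and were lower (1.54% of all genes were), and 0 of 32 were higher (1.43% of all genes were). The smallest adjusted p of the exact permutation tests was 0.741. For 0 of the 32 genes, and for 0% of all genes, did the groups not overlap.

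Most of these genes had fold changes below 0. The log2 fold change was below 0 for 24 of 32, against 52% of all genes, with a median of -0.25, against -0.01 over all genes tested. This count rested on control replicate 4: without that tumor, 17 of 31 were below 0 (52.1% of all genes were), with a median of -0.04 against -0.01 over all genes. In that fit Ubash3a was the only one of the 31 with an unadjusted p under 0.05 (edgeR, lower; 0.532% of all genes were), and Ccr9 had too few reads to be tested. Without cryoablation replicates 2, 4 and 5, a choice made after the data were seen, 32 of 32 were below 0 (53.4% of all genes were), with a median of -0.50 against -0.01 over all genes. Of these, 4 were lower at an unadjusted p under 0.05 (Ccr9, Cd3d, Cd5 and Ubash3a), against 1.15% of all genes.

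**Figure D1:**
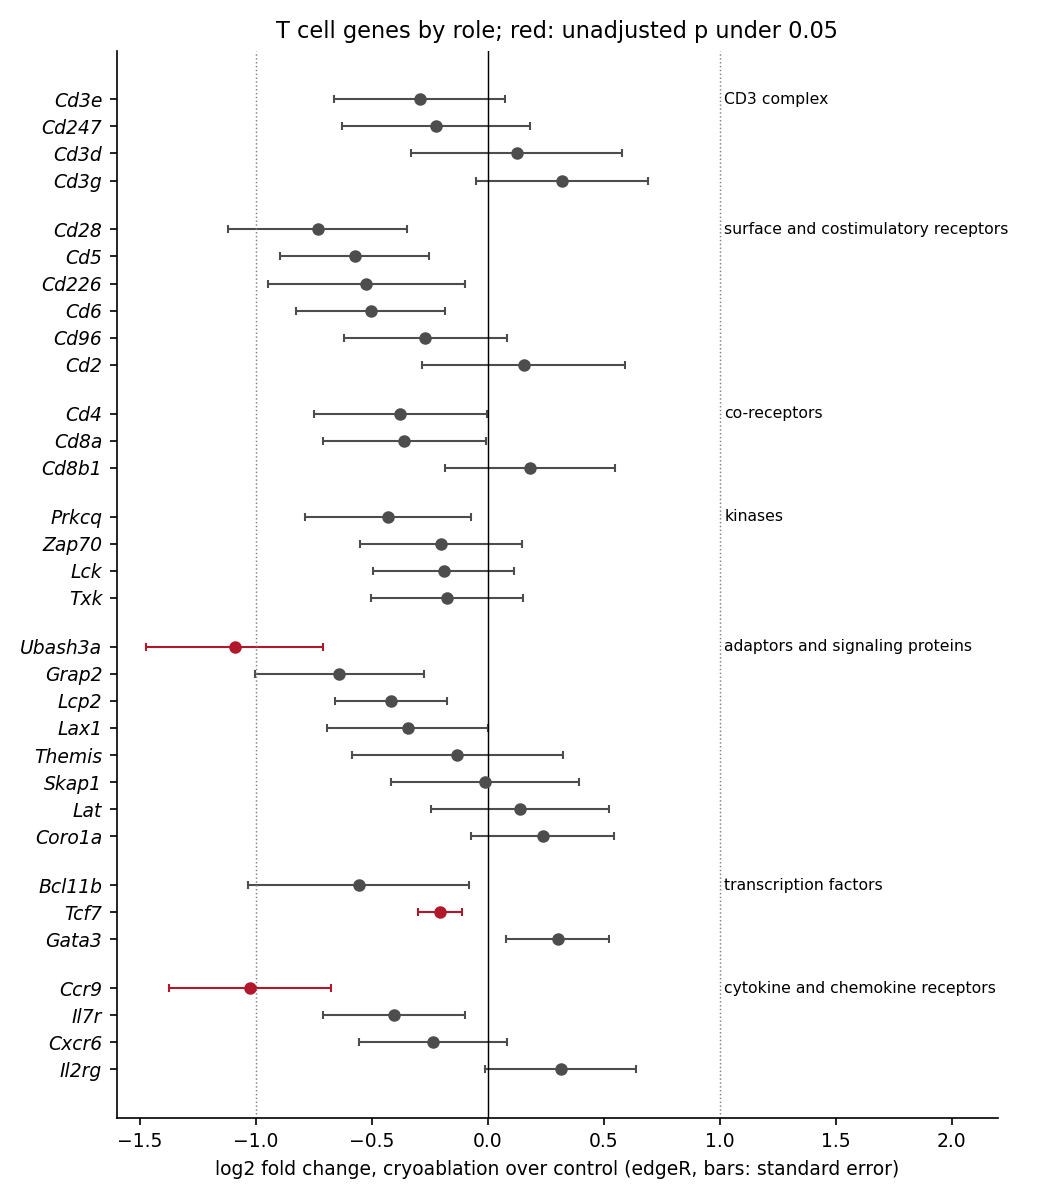
Log2 fold change of each of the 32 genes tested (cryoablation over control, edgeR; bars are the standard error), grouped by role, with dotted lines at -1 and 1. Ubash3a and Ccr9 lay beyond -1, and every gene in red (unadjusted p under 0.05) lay below 0.

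The 4 CD3 complex genes had a median log2 fold change of -0.05, with 2 above 0 and 2 below. Per length, Cd3d and Cd3g were the most abundant of them, at control medians of 3.06 and 2.88 FPKM, and Cd3e and Cd247 were at 0.764 and 0.443 FPKM. Cd3e, which encodes the epsilon chain that pairs with both delta and gamma, had 1.07 CPM in the lowest, 2.95 in the median and 7.64 in the highest control tumor, and 0.904, 2.16 and 5.17 CPM in the cryoablation group. The groups overlapped, and the highest control value was that of replicate 4. For Cd3e this was a log2 fold change of -0.29 (± 0.37 SE, the standard error; exact permutation p = 0.562).

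Cd3d, the delta chain, had 3.66, 5.44 and 17.7 CPM (lowest, median and highest) in control tumors and 1.08, 4.53 and 18.3 CPM in cryoablation tumors. Cryoablation replicate 7 was the lowest tumor and cryoablation replicate 2 the highest, so that the cryoablation group enclosed the control group. For Cd3d the log2 fold change was 0.12 (± 0.45 SE, exact permutation p = 0.719). It was -1.01 without cryoablation replicates 2, 4 and 5 (edgeR unadjusted p = 0.0206).

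Cd3g, the gamma chain, had the highest log2 fold change of all 32 genes, at 0.32 (± 0.37 SE, exact permutation p = 0.675). Its values were 4.18, 8.90 and 21.1 CPM in control tumors and 3.25, 8.30 and 26.1 CPM in cryoablation tumors. The cryoablation median was thus below the control median, and 2 cryoablation tumors lay above every control tumor. Without cryoablation replicates 2, 4 and 5 the log2 fold change was -0.40.

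Cd247, the zeta chain, which carries more of the tyrosine motifs than any other chain, had 1.08, 2.30 and 10.5 CPM in control tumors and 1.21, 2.28 and 5.85 CPM in cryoablation tumors. The medians were nearly equal and every cryoablation tumor lay within the control range. On the log2 scale the fold change of Cd247 was -0.22 (± 0.41 SE, exact permutation p = 0.861), and it was 0.25 without control replicate 4.

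**Figure D2:**
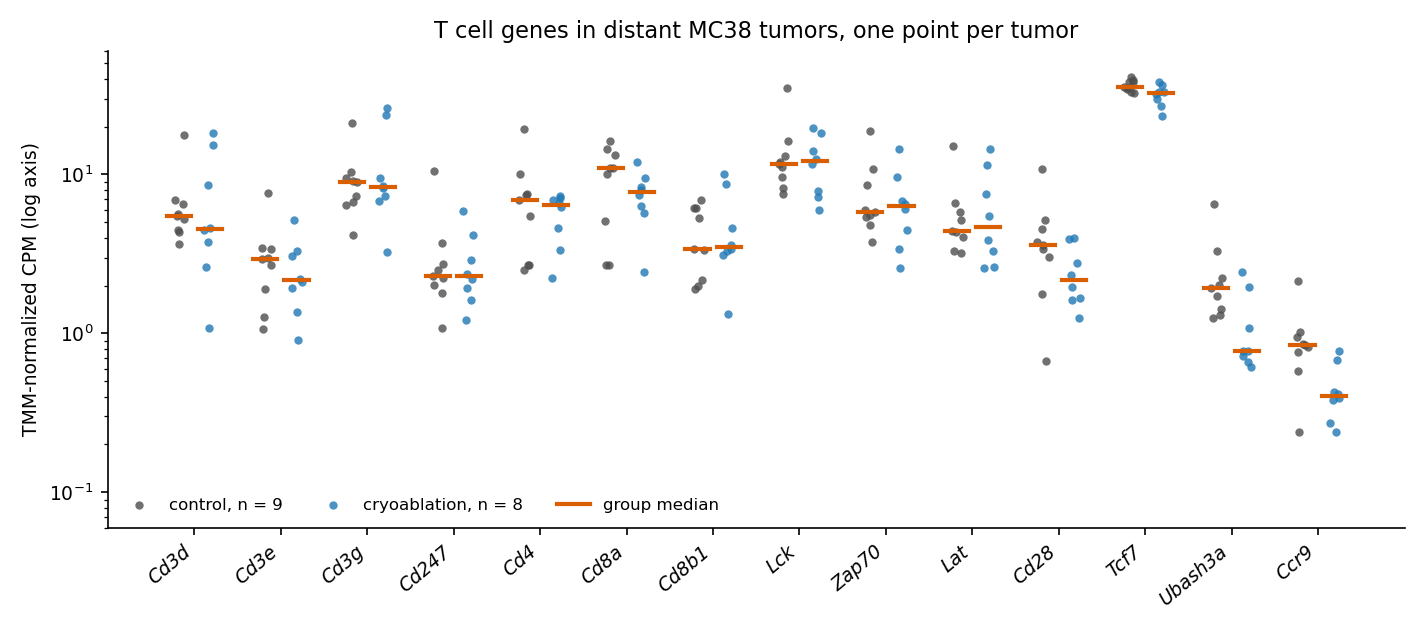
TMM-normalized CPM (log axis) of 14 T cell genes, one point per tumor, with control tumors in grey (n = 9), cryoablation tumors in blue (n = 8) and group medians in orange. The groups overlapped for every gene, and for Ubash3a 6 of the 8 cryoablation tumors lay below all control tumors.

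No co-receptor gene passed a test between the groups. Cd4, which marks helper and regulatory T cells and is also found on some myeloid cells, had 2.51, 6.86 and 19.4 CPM (lowest, median and highest) in control tumors and 2.23, 6.45 and 7.32 CPM in cryoablation tumors. Control tumors spread far wider than cryoablation tumors, with control replicate 4 highest. Cd4 thus came to a log2 fold change of -0.38 (± 0.37 SE, exact permutation p = 0.683).

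Cd8a, which marks cytotoxic T cells and a subset of dendritic cells, had 2.68, 10.9 and 16.1 CPM in control tumors and 2.42, 7.73 and 12.0 CPM in cryoablation tumors. In the cryoablation group, 7 of 8 tumors lay below the control median, but only replicate 4 lay below the lowest control tumor. For Cd8a the log2 fold change was -0.36 (± 0.35 SE, exact permutation p = 0.599). Cd8b1, the beta chain of conventional cytotoxic T cells, had 1.91, 3.41 and 6.89 CPM in control tumors and 1.33, 3.50 and 10.1 CPM in cryoablation tumors, a log2 fold change of 0.18 (± 0.37 SE, exact permutation p = 0.769). Its cryoablation range enclosed its control range, unlike that of Cd8a. Without cryoablation replicates 2, 4 and 5, Cd8b1 was at -0.41, and with voom it was at -0.25.

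Ratios between genes were then compared within each tumor. The log2 ratio of Cd8a to Cd4 was 0.46 ± 0.81 (SD, n = 9) in control tumors and 0.40 ± 0.65 (SD, n = 8) in cryoablation tumors (exact permutation p = 0.880). The log2 ratio of Cd8a to Cd3e differed by 0.00053 (exact permutation p = 0.999) and that of Cd4 to Cd3e by 0.06 (exact permutation p = 0.803). The log2 ratio of Cd8b1 to Cd8a was -1.09 ± 0.49 (SD, n = 9) and -0.75 ± 0.95 (SD, n = 8; exact permutation p = 0.357). The adjusted p over the 5 ratios was 0.999 for each.

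Within the cryoablation group, the Cd8b1 to Cd8a ratio split the tumors. It was 0.12, 0.55 and 0.28 in cryoablation replicates 2, 4 and 5, above the control maximum of -0.30, and -2.01 to -0.87 in the other 5. The log2 ratio of Cd3e to Ptprc, the pan-leukocyte gene that encodes CD45, was -4.84 ± 0.28 (SD, n = 9) in control tumors and -4.65 ± 1.08 (SD, n = 8) in cryoablation tumors (exact permutation p = 0.607). Cryoablation replicates 2, 5 and 8 had -3.04, -3.13 and -4.41, above the control maximum of -4.43. Cryoablation replicates 1, 6 and 7 had -5.49, -5.44 and -5.92, below the control minimum of -5.24. The 3 tumors with the high Cd8b1 to Cd8a ratio were those that stood apart on the first principal component. They also had high levels of short relative to long genes, as given below, and Cd8b1 is listed at 1483 bases against 3637 for Cd8a. Among controls, replicates 1 and 5 were highest in that level and in this ratio (-0.30 and -0.41). The part of gene length in this ratio was not tested.

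Among the surface and costimulatory receptors, 5 of 6 had log2 fold changes below 0, with a median of -0.51. Cd28, the principal costimulatory receptor, had 0.672, 3.59 and 10.8 CPM (lowest, median and highest) in control tumors and 1.25, 2.15 and 3.99 CPM in cryoablation tumors. All cryoablation tumors lay within the control range, and 6 of 8 lay below the control median. In Cd28 the log2 fold change was -0.73 (± 0.39 SE, edgeR unadjusted p = 0.0732, exact permutation p = 0.235).

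Cd6, a receptor of activated leukocyte cell adhesion molecule, had 2.39, 3.69 and 12.4 CPM in control tumors and 2.22, 3.12 and 5.94 CPM in cryoablation tumors, a log2 fold change of -0.51 (± 0.32 SE, exact permutation p = 0.237). Its neighbour and relative Cd5, an inhibitory receptor, had a log2 fold change of -0.57, Cd226 (an activating receptor of nectins) -0.52 and Cd96 (a receptor of the same ligands) -0.27. Cd2, the adhesion receptor of CD48, was the exception at 0.15, a value that was -0.76 without cryoablation replicates 2, 4 and 5.

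The 4 kinases all had log2 fold changes below 0, with a median of -0.20, and none had an unadjusted p under 0.05. Lck, which phosphorylates the CD3 chains, had 7.54, 11.6 and 34.7 CPM (lowest, median and highest) in control tumors and 5.97, 12.1 and 19.7 CPM in cryoablation tumors. The cryoablation median was above the control median although the log2 fold change was -0.19 (± 0.30 SE, exact permutation p = 0.657). Control replicate 4 had more than any other tumor. Without it the log2 fold change of Lck was 0.10.

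Zap70, recruited to phosphorylated CD3 chains, had 3.73, 5.84 and 18.6 CPM in control tumors and 2.59, 6.29 and 14.4 CPM in cryoablation tumors, a log2 fold change of -0.20 (± 0.35 SE, exact permutation p = 0.576) that was 0.07 without control replicate 4. Prkcq, the protein kinase C isoform of the T cell synapse, had a log2 fold change of -0.43 and Txk, a Tec family kinase, one of -0.18. As with Lck, the highest tumor for Zap70, Prkcq and Txk was control replicate 4.

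Ubash3a was the gene with the lowest log2 fold change. It encodes a phosphatase-like protein that dampens T cell receptor signaling. Its values were 1.26, 1.92 and 6.54 CPM (lowest, median and highest) in control tumors, from 17 to 101 counts, and 0.610, 0.773 and 2.42 CPM in cryoablation tumors, from 8 to 36 counts. Cryoablation replicates 3 and 4 lay within the control range, and the other 6 tumors of the group lay below every control tumor. For Ubash3a the log2 fold change was -1.09 (± 0.38 SE, edgeR unadjusted p = 0.0101, adjusted p = 0.728), and the exact permutation test gave an unadjusted p of 0.0102 (adjusted p = 0.741).

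With each tumor left out in turn, Ubash3a kept an edgeR unadjusted p under 0.05 in 17 of 17 fits, with log2 fold changes from -1.34 to -0.76, the latter without control replicate 4. It also kept this without cryoablation replicates 2, 4 and 5, at -1.25 (edgeR unadjusted p = 0.0117). With an offset for gene length the log2 fold change was -0.94 (edgeR unadjusted p = 0.0224).

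The other adaptors and signaling proteins were closer to 0. Lat, the membrane scaffold of the receptor signal, had 3.21, 4.39 and 15.1 CPM (lowest, median and highest) in control tumors and 2.59, 4.68 and 14.5 CPM in cryoablation tumors, a log2 fold change of 0.14 (± 0.38 SE, exact permutation p = 0.916) that was -0.70 without cryoablation replicates 2, 4 and 5. Of the 8 genes of this group that passed the filter, 6 were below 0 and the median was -0.24. Grap2 (GADS), which links Lat to Lcp2, had a log2 fold change of -0.64, Lcp2 itself -0.42 and Lax1, a Lat-like inhibitory adaptor, -0.35. Themis, needed for thymocyte selection, was at -0.13, Skap1, an adaptor of integrin activation, at -0.01 and Coro1a, an actin regulator found in all leukocytes, at 0.24. Without cryoablation replicates 2, 4 and 5, Coro1a was at -0.37.

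The adaptors Trat1 and Sit1 were under the filter on low counts. Trat1, which stabilizes the receptor complex, was covered by 1 to 41 counts in the controls and 2 to 9 after cryoablation. Sit1, which recruits an inhibitory phosphatase, had 3 to 27 and 3 to 24 counts. At this depth, no difference could be read for either gene.

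Among the transcription factors, Tcf7, which encodes TCF-1 of naive and stem-like T cells, varied little between tumors. It had 32.7, 35.4 and 41.2 CPM (lowest, median and highest) in control tumors and 23.3, 32.4 and 38.4 CPM in cryoablation tumors. The control tumors lay close together, and 4 of 8 cryoablation tumors lay below the lowest of them. The log2 fold change was -0.21 (± 0.10 SE, edgeR unadjusted p = 0.0445, adjusted p = 0.728), and the exact permutation test gave an unadjusted p of 0.0209.

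This call was not stable. Tcf7 had an edgeR unadjusted p under 0.05 in 7 of the 17 fits that left out 1 tumor, and the log2 fold change was -0.09 without cryoablation replicates 2, 4 and 5 (edgeR unadjusted p = 0.289), which had 26.8, 29.8 and 23.3 CPM, the lowest values of all tumors. Among other settings, it was also lost with the offset for gene length (edgeR unadjusted p = 0.0772) and with voom (unadjusted p = 0.321). Per length, Tcf7 was at a control median of 12.5 FPKM, above Cd3d at 3.06 FPKM. Bcl11b, which guards T cell identity, had a log2 fold change of -0.56, and Gata3, of helper T cells and innate lymphoid cells, one of 0.30. Gata3 lay above every control tumor in cryoablation replicates 2, 4 and 5, at 7.32, 8.04 and 7.33 CPM, and its log2 fold change without them was -0.14.

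Of the cytokine and chemokine receptors, 3 of 4 had log2 fold changes below 0. Ccr9, the receptor of the gut and thymus chemokine CCL25, had 0.238, 0.843 and 2.14 CPM (lowest, median and highest) in control tumors and 0.241, 0.404 and 0.772 CPM in cryoablation tumors. The control median exceeded all 8 cryoablation tumors, of which none was below the lowest control tumor, replicate 9. These values were near the depth limit, with 4 to 33 counts in the controls and 4 to 12 after cryoablation. The log2 fold change was -1.03 (± 0.35 SE, edgeR unadjusted p = 0.00839, adjusted p = 0.728), and the exact permutation test gave an unadjusted p of 0.0156. Of the 17 fits without 1 tumor, Ccr9 reached the count filter in 10. Its log2 fold changes there were -1.16 to -0.94, with an edgeR unadjusted p under 0.05 in each. It was not tested without control replicate 1, 3, 4, 5, 6, 7 or 8. The filter thus depended on the group where Ccr9 was higher, so these 10 fits do not show that the call is stable.

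Ccr9 is also found on plasmacytoid dendritic cells. Siglech, a marker of these cells, had 0.299, 0.897 and 2.91 CPM in control tumors and 0.0603, 1.54 and 3.79 CPM in cryoablation tumors, a log2 fold change of 0.56 (± 0.55 SE). Of the 7 markers of plasmacytoid dendritic cells, Ccr9 among them, 6 passed the filter, 3 with log2 fold changes below 0 and 3 above, and their summed level was 301 to 536 CPM in control tumors and 293 to 691 CPM in cryoablation tumors. Tcf4, a transcription factor of these cells, was among the 3 above 0. It had 86.1, 97.2 and 110 CPM in control tumors and 98.5, 112 and 188 CPM in cryoablation tumors, a log2 fold change of 0.36 (± 0.12 SE, edgeR unadjusted p = 0.00677, adjusted p = 0.728, exact permutation p = 0.00362). The part of these cells in the result for Ccr9 was not tested. Ccl25, its ligand, had a log2 fold change of 0.18 (± 0.09 SE).

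Il7r, the receptor subunit that sustains naive and memory T cells, had 4.41, 13.9 and 32.8 CPM (lowest, median and highest) in control tumors and 7.11, 10.6 and 18.4 CPM in cryoablation tumors, a log2 fold change of -0.40 (± 0.31 SE, exact permutation p = 0.371). All cryoablation tumors lay within the control range. Cxcr6, the receptor of CXCL16 on resident and effector T cells, had a log2 fold change of -0.24, and Il2rg, the common gamma chain of several cytokine receptors, one of 0.31. Il2rg was at -0.50 without cryoablation replicates 2, 4 and 5 and at -0.30 with voom. The ligand Cxcl16 was at 0.40 (± 0.24 SE). Of 13 ligands of these receptors, 11 passed the filter, 6 with log2 fold changes below 0 and 5 above, and 0 had an edgeR unadjusted p under 0.05 (in exact permutation tests 1 had, Ccl25 with an unadjusted p of 0.0292).

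The spread between tumors was shared by most of the genes. Control replicate 4 had the highest value for 24 of the 32 genes and one of the 3 highest for 30. At the other end, cryoablation replicate 7 was lowest for 15 genes and control replicate 1 for 8. Averaged over the 32 genes, the log2 CPM was 3.77 in control replicate 4, 1.55 in control replicate 1 and 1.31 in cryoablation replicate 7. Cryoablation replicates 2 and 5 were among the 3 highest for 17 and 12 genes, among them the CD3 genes Cd3d and Cd3g.

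**Figure D3:**
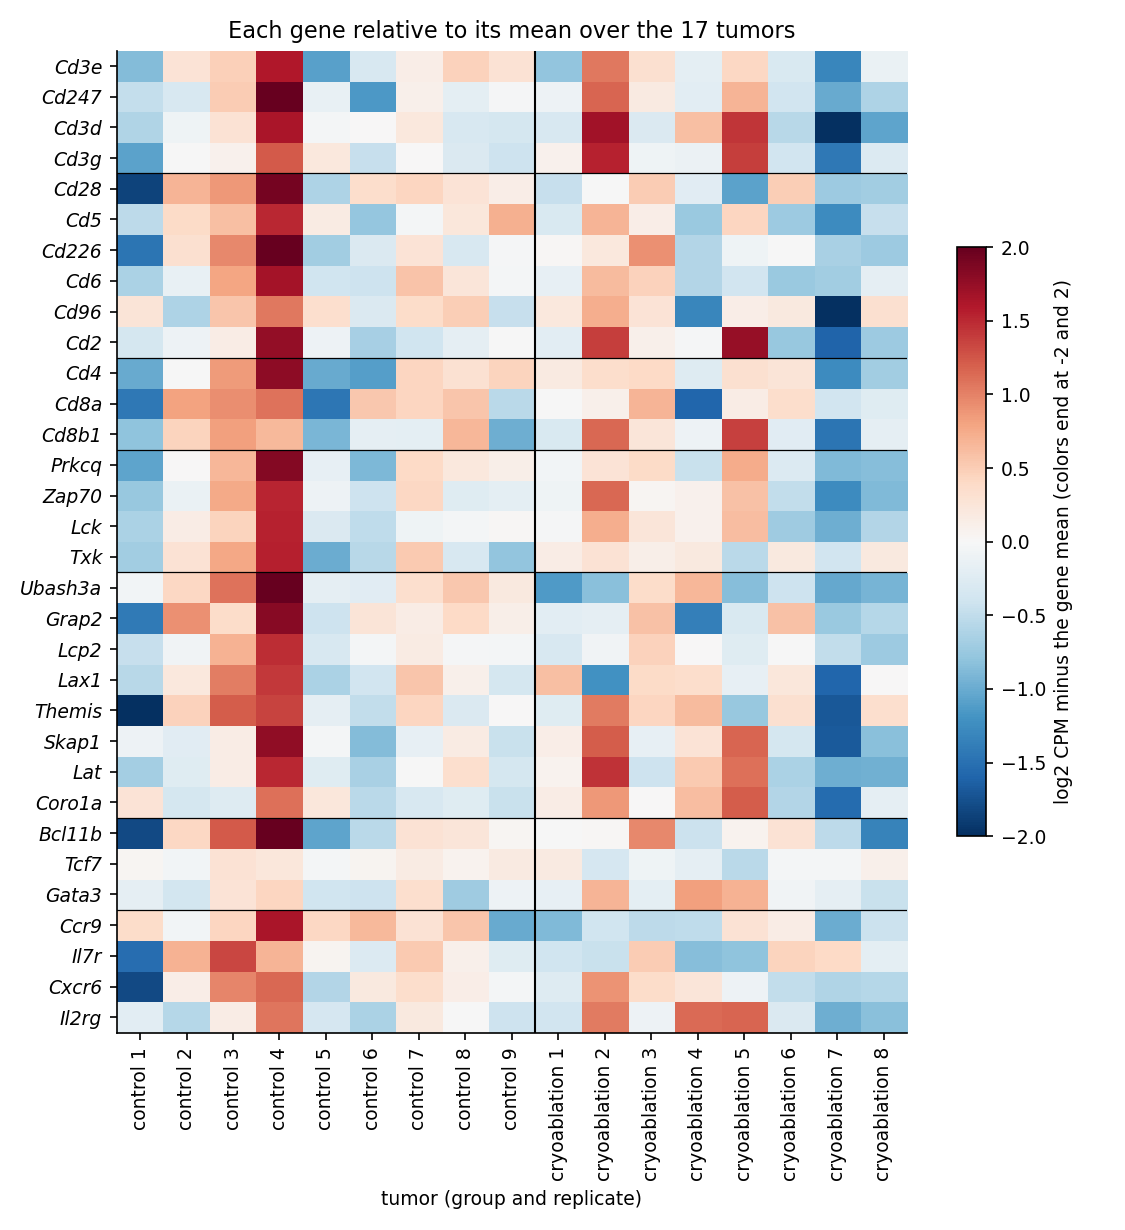
Log2 CPM of each of the 32 genes minus its mean over the 17 tumors (color, ending at -2 and 2), with genes in rows by role and tumors in columns, control left of the line. Control replicate 4 was above the mean for nearly every gene, and cryoablation replicate 7 was below it for most.

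Several marker lists of other cells were highest among control tumors in replicate 4. The summed level of 8 B and plasma cell markers, of which 4 passed the filter, was 75.1 CPM there against a control median of 15.4 CPM, with a range of 3.73 to 75.1 CPM in control tumors and 4.83 to 26.1 CPM in cryoablation tumors. Summed markers of NK cells (8 of 8 tested, 26.4 to 116 CPM and 26.3 to 77.5 CPM), macrophages (8 of 8 tested, 1894 to 4859 CPM and 1245 to 6932 CPM), neutrophils (5 of 7 tested, 8.67 to 73.9 CPM and 8.65 to 59.2 CPM) and lymph node stroma and follicle (1 of 7 tested, 0.603 to 10.5 CPM and 0.537 to 4.97 CPM) were also highest among control tumors in replicate 4. Other lists were not. Markers of skeletal muscle (4 of 7 tested, 2.72 to 144 CPM and 3.75 to 59.8 CPM), the carcinoma line (5 of 7 tested, 16.8 to 97.3 CPM and 9.76 to 216 CPM), innate lymphoid and gamma delta T cells (3 of 8 tested, 11.04 to 16.98 CPM and 12.6 to 19.4 CPM) and plasmacytoid dendritic cells were highest among controls in replicates 6, 7, 9 and 2. Summed markers of keratinocytes (3 of 7 tested, 182 to 444 CPM and 205 to 665 CPM) were lowest among controls in replicate 4. Of the 5 neutrophil markers tested, 3 had log2 fold changes above 0 and 2 below. S100a8 (1.34 ± 0.53 SE) and S100a9 (1.61 ± 0.65 SE) were higher at an edgeR unadjusted p under 0.05 (exact permutation p = 0.0554 and 0.127). At that edgeR threshold, the macrophage marker Adgre1 was lower (-0.69 ± 0.29 SE) and the keratinocyte marker Krt10 higher (0.73 ± 0.26 SE). Of all genes, 3.74% were higher and 1.17% lower. The lymph node chemokine gene Ccl21a was at 0 in at least 1 tumor of each group and at most 0.608 CPM. The part of these cells in the values of the T cell genes was not tested.

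Gene length moved with the sign of the fold changes. Of the 11 genes under 3000 bases as listed, 6 had log2 fold changes above 0 and the median was 0.12, against 0.16 over all 3615 tested genes of that length. Of the 21 longer genes, 19 were below 0 and the median was -0.40, against -0.05 over 9390 genes. For each tumor, the log2 level of each tested gene was centred over the tumors. The median over the 5631 genes longer than 5000 bases was subtracted from the median over the 1641 genes under 2000 bases. The difference was 0.91, 0.85 and 1.20 in cryoablation replicates 2, 4 and 5. It was -0.53 to 0.50 in the control group and -0.68 to 0.02 in the other 5 cryoablation tumors. The log2 ratio of Cd3d (1815 bases) to Cd3e (4080 bases) was 1.80 to 2.17 in these 3 tumors, 0.40 to 2.21 in the control group and 0.23 to 1.63 in the other cryoablation tumors.

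With an offset for gene length, 25 of 32 genes were below 0 (44.6% of all genes were), with a median of -0.27 against 0.02 over all genes. Ccr9 and Ubash3a kept an edgeR unadjusted p under 0.05 (lower in 1.08% of all genes). Cd3d was then at -0.18, Cd8b1 at -0.15 and Cd2 at -0.13. What gave these 3 tumors their tilt toward short genes was not tested.

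**Figure D4:**
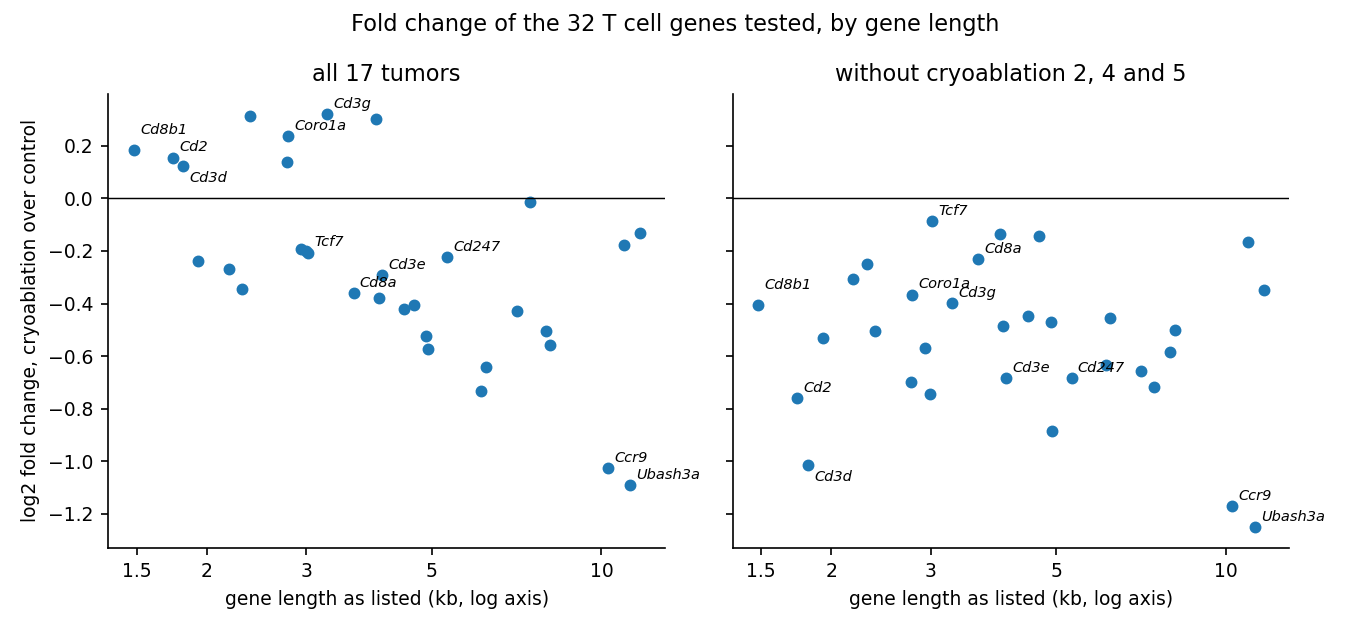
Log2 fold change (cryoablation over control) of the 32 genes tested against gene length as listed (kb, log axis), in all 17 tumors on the left and without cryoablation replicates 2, 4 and 5 on the right. On the left 8 genes lay above 0, 6 of them under 3000 bases, and on the right all 32 lay below 0.

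How closely each gene followed Cd3e was described by its correlation over the 17 tumors, with 31 relations computed. Correlations of all other genes with Cd3e were not computed, so the counts below do not set these genes apart from others. Pearson's r was above 0 for 30 of 31 genes, with a median of 0.72, and 26 had a permutation p under 0.05 after Benjamini-Hochberg adjustment (25 for Spearman's rho). The closest were Lck (r = 0.86, permutation p = 2e-05, adjusted p = 0.000517; rho = 0.83, p = 1e-04, adjusted p = 0.00101), Cd4 (r = 0.84, permutation p = 4e-05, adjusted p = 0.000517; rho = 0.84, p = 4e-05, adjusted p = 0.00101) and Cd6 (r = 0.82, permutation p = 5e-05, adjusted p = 0.000517; rho = 0.82, p = 0.00013, adjusted p = 0.00101). Without the 2 tumors farthest from the median of Cd3e, control replicate 4 and cryoablation replicate 7, r was 0.73 for Lck, 0.70 for Cd4 and 0.69 for Cd6, and 11 genes had an adjusted p under 0.05 (10 for rho).

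The genes least like Cd3e were Tcf7 (r = -0.03, permutation p = 0.915, adjusted p = 0.915; rho = 0.09, p = 0.735, adjusted p = 0.735), Il7r (r = 0.30, permutation p = 0.245, adjusted p = 0.254; rho = 0.31, p = 0.223, adjusted p = 0.238) and Ccr9 (r = 0.42, permutation p = 0.0966, adjusted p = 0.103; rho = 0.27, p = 0.298, adjusted p = 0.308). Without those 2 tumors, r was -0.28, 0.33 and -0.10. Within the control group, 22 of 31 genes had an adjusted permutation p under 0.05 for r and 11 for rho, and within the cryoablation group 8 for r and 1 for rho. The r of Tcf7 was 0.65 among control tumors (permutation p = 0.0575) and -0.64 among cryoablation tumors (permutation p = 0.0831). For Il7r these values were 0.61 (permutation p = 0.0799) and -0.34 (permutation p = 0.407), and for Lck 0.89 and 0.81. The differences between the groups in r were not tested.

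**Figure D5:**
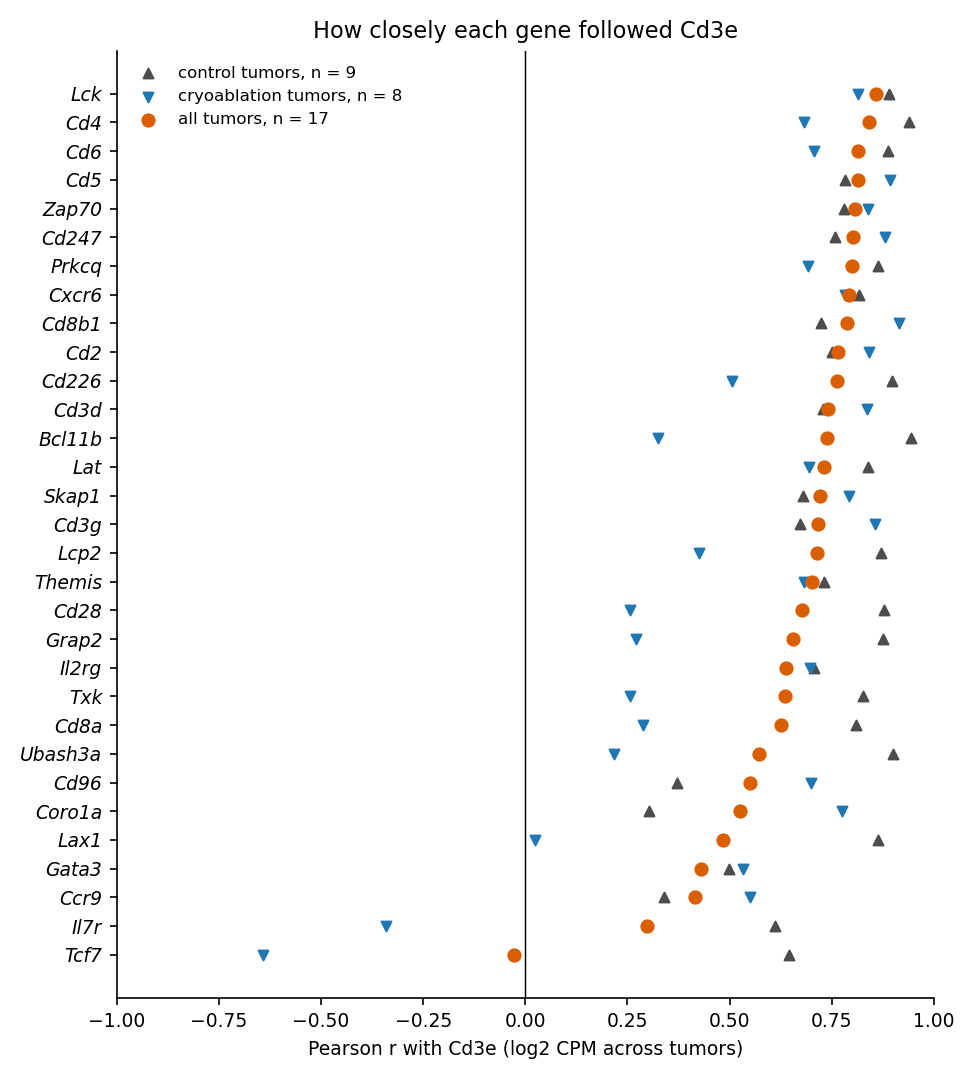
Pearson r of each gene with Cd3e (log2 CPM) over all 17 tumors (orange), the 9 control tumors (grey) and the 8 cryoablation tumors (blue). Lck stood at the top with 0.86 over all tumors, and Tcf7 at the bottom with 0.65 in control tumors and -0.64 in cryoablation tumors.

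Further genes of the pathway were counted on lists outside the 34. Of 35 other T cell receptor signaling genes, 35 passed the filter. Of these, 31 had log2 fold changes below 0, against 52% of all genes, and the median was -0.16, against -0.01. Among control tumors their summed level was also highest in replicate 4, at 2028 CPM against a control median of 1429 CPM. This list was not counted again without that tumor. At an edgeR unadjusted p under 0.05, 3 of the 35 were lower, against 1.17% of all genes, and 0 were higher, against 3.74%. The 3 were Fyn, an Src family kinase related to Lck (-0.23 ± 0.10 SE), Nck1, an adaptor to the cytoskeleton (-0.19 ± 0.08 SE), and Pik3cd, the PI3-kinase subunit of leukocytes (-0.62 ± 0.28 SE). All 3 have roles outside T cells, and Fyn and Nck1 are transcribed in most tissues. Of 9 genes of naive and recirculating T cells, 8 passed the filter, 6 of them below 0 with a median of -0.16, and 1 was higher at an edgeR unadjusted p under 0.05 (3.74% of all genes were), the transcription factor Foxp1 (0.32 ± 0.14 SE), which many cell types transcribe. Ccr7, a chemokine receptor of these cells, was at -0.43 (± 0.38 SE).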

How the data were processed

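Groups and replicate numbers were taken from the labels, and 0 columns were without a sample. For each gene and tumor, the authors deposited read counts, which are not normalized, and FPKM, which equalled the count divided by gene length and by total count (largest relative difference 4e-14) and were used only to compare levels between genes. The submitters' processing notes name GRCm38 and mm10. The aligner, the counting program and the strandedness are not given in the sources used here. Table positions equal those of GENCODE M21 for 512 of 21827 shared genes, so the only coordinates given are those of RefSeq. Libraries were made with a SMARTER kit from RNA isolated with an RNeasy kit.

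All genes were fitted together in edgeR 4.0.16 (R 4.3.3): with TMM size factors, the filterByExpr filter and a quasi-likelihood F test of group, without covariates, with Benjamini-Hochberg adjustment over 13005 genes. Standard errors (SE) were derived from F as the absolute log2 fold change over its square root. Two-sided exact permutation tests (smallest possible p 4.11e-05) and 100000-resample permutation tests of correlations used log2 CPM with a prior count of 2. The genes named with full values were a fixed core of receptor, co-receptor and signaling genes, those with an unadjusted p under 0.05, the highest and lowest fold changes, and the 3 highest and 3 lowest correlations with Cd3e. The exceptions, named by role or after their values were seen, carry a fold change only. The 34 genes and all lists were chosen with earlier results of these data known. Alternatives were RLE normalization, DESeq2 1.42.0, limma 3.58.1 voom with sample quality weights, 2 other filters, a replicate block, a gene length offset (spline with 4 degrees of freedom), a prior count of 0.5 and leaving out each tumor. Leaving out cryoablation replicates 2, 4 and 5 was added after seeing the data. Each script was first tested on simulated data, 200 genes of which had been altered. Same-numbered tumors deviated together (r over 0.1) in 4 of 8 numbers. This count has no comparison with unlike numbers, so it does not settle whether the numbers pair the tumors. The labels state no pairing, and the main fit used none.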

Additional observations from a re-analysis of the deposited data

Results flagged for a closer look

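The 64 sets of values examined (32 genes in each group) came from the same tumors and were not independent. The share over all genes was not computed. Of the 64 sets, 9 held a tumor far from the others of its group by Dixon's test on log2 CPM. For a single set, chance gives about 1 in 20. In 7 of the 9 the tumor was control replicate 4, which was high for Cd3d (17.7 CPM against a group median of 5.44), Cd2 (24.7 against 6.67), Lck (34.7 against 11.6), Lat (15.1 against 4.39), Skap1 (13.8 against 3.66), Coro1a (221 against 85.9) and Il2rg (44.7 against 18.3). Cryoablation replicate 4 was low for Cd8a, at 2.42 CPM against a group median of 7.73. Control replicate 1 was low for Themis, at 0.0747 CPM (1 count) against a group median of 1.07.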

How the results depend on the processing

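Of the 32 genes tested, 18 kept the sign of their log2 fold change in every setting tried and 14 did not. Ubash3a kept an unadjusted p under 0.05 in every setting, and Ccr9 in every setting in which it passed the filter. With 1 tumor left out, whether Ccr9 passed depended on the controls, where it was higher, so those fits do not show stability. In every fit 0 genes passed the adjusted threshold. With voom, 5 genes were lower at an unadjusted p under 0.05 (Ccr9, Cd28, Cd3e, Cd5 and Ubash3a), 1 with an absolute log2 fold change over 1, and the log2 fold changes were -0.60 (Cd3e), -0.57 (Cd3d), -0.0085 (Cd3g), -0.27 (Cd2), -0.25 (Cd8b1), -0.39 (Lat), -0.30 (Il2rg) and 0.14 (Txk). The gene length offset left 0 genes over that fold change, and gave -0.18 (Cd3d), -0.13 (Cd2), -0.15 (Cd8b1), 0.18 (Skap1) and 0.067 (Themis). DESeq2 gave 0.0023 for Skap1. Without a filter the count of all genes lower at an unadjusted p under 0.05 was 362 of 17819, and with voom 697, against 152.

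The tumors of the groups share only a number. With the replicate block, 2 genes were lower at an unadjusted p under 0.05 (Ccr9 and Ubash3a), against 1.64% of all genes. Tcf7 was at -0.21 with an edgeR unadjusted p of 0.0552. The log2 fold change was below 0 for 28 of 32, with a median of -0.22 against -0.02 over all genes. It was -0.22 for Cd3d, -0.026 for Cd2, -0.036 for Cd8b1 and -0.015 for Lat. The paired difference in the log2 ratio Cd8a to Cd3e was -0.10. For 2 of the 8 numbers, the tumors correlated best with the tumor of the same number.

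Without cryoablation replicates 2, 4 and 5, the log2 fold changes were -1.01 (Cd3d), -0.40 (Cd3g), -0.76 (Cd2), -0.41 (Cd8b1), -0.70 (Lat), -0.37 (Coro1a), -0.50 (Il2rg) and -0.14 (Gata3), and the differences were 0.28 in the log2 ratio Cd8a to Cd4, -0.30 in the log2 ratio Cd8b1 to Cd8a and -0.44 in the log2 ratio Cd3e to Ptprc. The cause of these reversals was not tested.

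With each tumor left out, 1 to 5 genes were lower at an unadjusted p under 0.05, against 0.532% to 2.81% of all genes. Of the T cell genes, 0 to 2 also had an absolute log2 fold change over 1, a count without a share over all genes for these fits. The log2 fold change ranged from -0.21 to 0.55 (Cd2), -0.47 to 0.25 (Cd247), -0.22 to 0.45 (Cd3d), -0.065 to 0.32 (Cd8b1), -0.15 to 0.45 (Lat), -0.33 to 0.10 (Lck), -0.23 to 0.38 (Skap1), -0.31 to 0.077 (Themis), -0.28 to 0.13 (Txk) and -0.46 to 0.069 (Zap70). The difference in the log2 ratio Cd3e to Ptprc ranged from -0.038 to 0.37, in the log2 ratio Cd4 to Cd3e from -0.076 to 0.16, in the log2 ratio Cd8a to Cd3e from -0.13 to 0.20 and in the log2 ratio Cd8a to Cd4 from -0.19 to 0.15.

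Correlations with Cd3e passed the adjusted threshold for 11 genes (rho: 10) without the 2 farthest tumors, for 22 (rho: 11) within the control group and for 8 (rho: 1) within the cryoablation group, against 26 (rho: 25). The r of Tcf7 was 0.65 within the control group, that of Il7r -0.34 within the cryoablation group, and that of Ccr9 -0.10 without those 2 tumors. Depth limited Ccr9, Trat1, Sit1, Themis, Bcl11b and Cd96, each with 6 counts or fewer in at least 1 tumor.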
